A study of Homo sapiens with 3 samples.

Results

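The CRY1 cistrome of C4-2 cells held 7 peaks at the genes that encode the cryptochromes themselves, 2 at CRY1 and 5 at CRY2, out of 2551 peaks in all. A peak was assigned to a gene when its summit, the base with the strongest enrichment, lay inside the gene body or within 50 kb of it. C4-2 is an established human prostate cancer cell line that grows under castrate levels of androgen. The libraries were labelled as vehicle, with no allele or engineered change given, and the cells were kept in hormone-proficient medium. Chromatin immunoprecipitation with an antibody against CRY1 gave 2 libraries, sequenced beside 1 input library of the same cells. The authors called peaks once, on both immunoprecipitated libraries combined, and that single list is the measurement described here. It carries no value for either library alone, so no strength below has a replicate error, no difference could be tested, and the sequencing depth is unknown. There was no second condition, and no library from cells depleted of CRY1 was analysed here.

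CRY1 and CRY2 are the transcriptional repressors of the circadian clock. The activators CLOCK and BMAL1 bind E-box sequences and drive the PER and CRY genes, and the PER and CRY proteins then return to the chromatin-bound activators and silence them, which closes the loop on their own genes. Cryptochromes are held on chromatin mainly through such partners. The E-box is CACGTG, and the E′-box CACGTT is a weaker variant known from clock gene promoters. D-boxes and ROREs are the other classes of clock element, read by DBP and its relatives and by the ROR and NR1D receptors, and CRY1 is known as a gene that uses more than one of them.

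Inside the strongest peak of both genes was an E′-box and no E-box. Both intervals are wide. Of the 16 peaks at least as wide as that of CRY1, these included, 10 held an E′-box, a count made after the values had been seen. The sites are shown in GRCh37, 5′ to 3′ along the gene, which is the minus strand for CRY1 (chr12:107487399-107487428) and the plus strand for CRY2 (chr11:45868826-45868855). Capitals mark the E′-box, which reads AACGTG along both genes because CACGTT is on the opposite strand.
CRY1 E′-box site: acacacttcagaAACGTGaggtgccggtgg
CRY2 E′-box site: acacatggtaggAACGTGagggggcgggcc
The longest exact match across the 2 sites at the E′-box itself was AACGTGAGG, 9 bases, and 20 of the 30 aligned bases (66.7%) were equal. This 9-base run was picked out after the sequences had been seen. It occurred, on either strand, in 3 of 2549 summit windows (0.118%), in 10 of 2549 peak intervals (0.392%) and in 42 of 35116 RefSeq promoters of 300 bases from GRCh38.p14 (0.120%). An E′-box was found in 5.34% and an E-box in 7.26% of those promoters. CRY1 had 1 RefSeq promoter, with an E′-box, and CRY2 had 2, of which 1 held an E′-box, and none of the 3 held an E-box.

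The sequence around each promoter shows where these sites lie. The first is the 200 bases just upstream of the canonical CRY1 transcription start site (TSS), on the minus strand (chr12:107487328-107487527). The second is a stretch of 156 bases over the CRY2 summit, on the plus strand (chr11:45868801-45868956), which begins in the coding part of the first exon of CRY2-201 and ends just before the start site shared by CRY2-202 and CRY2-212. The third is the window reaching 50 bp to either side of the strongest CRY1 summit, on the minus strand (chr12:107487587-107487687), where no E′-box was found. Capitals mark the E′-box and the GC box, GGGCGG, the site of Sp1-family factors.
CRY1 upstream of TSS: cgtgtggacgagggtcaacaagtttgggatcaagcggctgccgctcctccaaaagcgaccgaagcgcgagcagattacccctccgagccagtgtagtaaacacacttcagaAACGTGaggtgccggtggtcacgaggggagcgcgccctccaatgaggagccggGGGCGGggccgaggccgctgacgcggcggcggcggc
CRY2 around the summit: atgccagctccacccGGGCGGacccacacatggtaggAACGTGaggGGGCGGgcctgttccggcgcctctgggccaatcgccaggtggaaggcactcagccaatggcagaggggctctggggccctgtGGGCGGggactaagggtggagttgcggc
CRY1 summit window: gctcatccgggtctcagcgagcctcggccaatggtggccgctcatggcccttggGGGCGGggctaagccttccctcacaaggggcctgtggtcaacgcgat

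CRY1 occupied its own promoter. The peak ran over 1768 bp (chr12:107486544-107488311), from 984 bp upstream of the canonical CRY1 TSS to 783 bp downstream of it, and covered the whole first exon (chr12:107486582-107487327). Its summit, at position 107487637, lay 310 bp upstream of that TSS, within an intron of the lncRNA gene ENSG00000257548, which lies on the opposite strand. Fold enrichment at the summit, the ratio of immunoprecipitated signal to the local background as the peak caller gives it, was 11.2, and −log10 q was 58.4. Whether that background was estimated from the input library is not given in the sources used here. By −log10 q the peak ranked 29 of 2551, by fold enrichment 149 and by width 16. The E′-box was 221 bp from the summit, and its first base along the gene was 89 bp upstream of the TSS, so this site lay in the peak but outside the summit window. The interval also held 7 GC boxes and 2 hexamers of the loose E-box form CANNTG, with G+C content of 62.2%.

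The other CRY1 peak lay inside the gene, in its first intron. It spanned 486 bp (chr12:107485941-107486426), 117 bases beyond the end of the promoter peak, and its summit was 1164 bp downstream of the canonical TSS and 1474 bp from the promoter summit. Fold enrichment was 6.39 and −log10 q 12.5, which placed it at rank 515 by −log10 q. The fold enrichment of the promoter peak was 1.75 times this value. Neither an E-box nor an E′-box, a CANNTG hexamer or a GC box was found anywhere in the intron interval, and its G+C content was 43.0%. The same window on this summit, minus strand (chr12:107486113-107486213), is shown for contrast with the GC-rich promoter windows, with nothing in capitals because no searched motif matched.
CRY1 intron summit window: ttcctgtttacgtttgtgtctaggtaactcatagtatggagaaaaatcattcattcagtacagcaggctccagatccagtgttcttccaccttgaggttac
Across the remaining gene body, which extends over 102 kb (chr12:107385142-107487327, minus strand, ENSG00000008405.12_9), no further summit was listed, and the nearest ones outside the 50 kb limit were 346 kb away on the RFX4 side (fold enrichment 6.86) and 2724 kb away near FAM222A (fold enrichment 9.03).

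The CRY2 promoter carried the strongest of the 7 peaks. It spanned 2984 bp (chr11:45867572-45870555), from 1454 bp upstream to 1529 bp downstream of the canonical TSS, and was the fourth widest interval of the list. Fold enrichment at its summit (position 45868823) was 13.0 and −log10 q was 66.0, which ranked it 21 of 2551 by −log10 q and 94 by fold enrichment. CRY2 has several annotated start sites. The summit was 203 bp upstream of the canonical one (CRY2-211), 134 bp upstream of that of CRY2-202 and CRY2-212, and 154 bp downstream of that of CRY2-201, in the coding part of whose first exon (chr11:45868669-45868832) it fell. Here the E′-box (chr11:45868838-45868843) was 15 bp from the summit, 188 bp upstream of the canonical TSS. A CACATG hexamer lay 4 bp from the summit, and 5 bases separated it from the E′-box. The whole interval held 17 CANNTG hexamers and 9 GC boxes. Set beside the CRY1 promoter peak, fold enrichment was 1.16 times and width 1.69 times as large, a difference with no replicate error to judge it by.

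Weaker CRY2 peaks lay upstream of the gene. The proximal one spanned 158 bp (chr11:45867128-45867285) with its summit 1822 bp upstream of the canonical TSS and a fold enrichment of 4.89 (−log10 q 4.73, rank 1571). The distal one spanned 511 bp (chr11:45864776-45865286) with its summit 4096 bp upstream and a fold enrichment of 4.87 (−log10 q 6.89, rank 1089). Both summits were intergenic and neither interval held an E-box, an E′-box or a CANNTG hexamer. Only 286 bases separated the proximal interval from the promoter peak. The promoter peak's fold enrichment was 2.29 times that of the next CRY2 peak, which was the one near LARGE2. Between the outermost bases of the peaks within 5 kb of the canonical TSS, the 3 CRY2 peaks spanned 5780 bp and the 2 CRY1 peaks 2371 bp. These spans include the gaps between peaks, of which the longest was 1841 bases, between the distal and proximal CRY2 peaks.

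**Figure D1:**
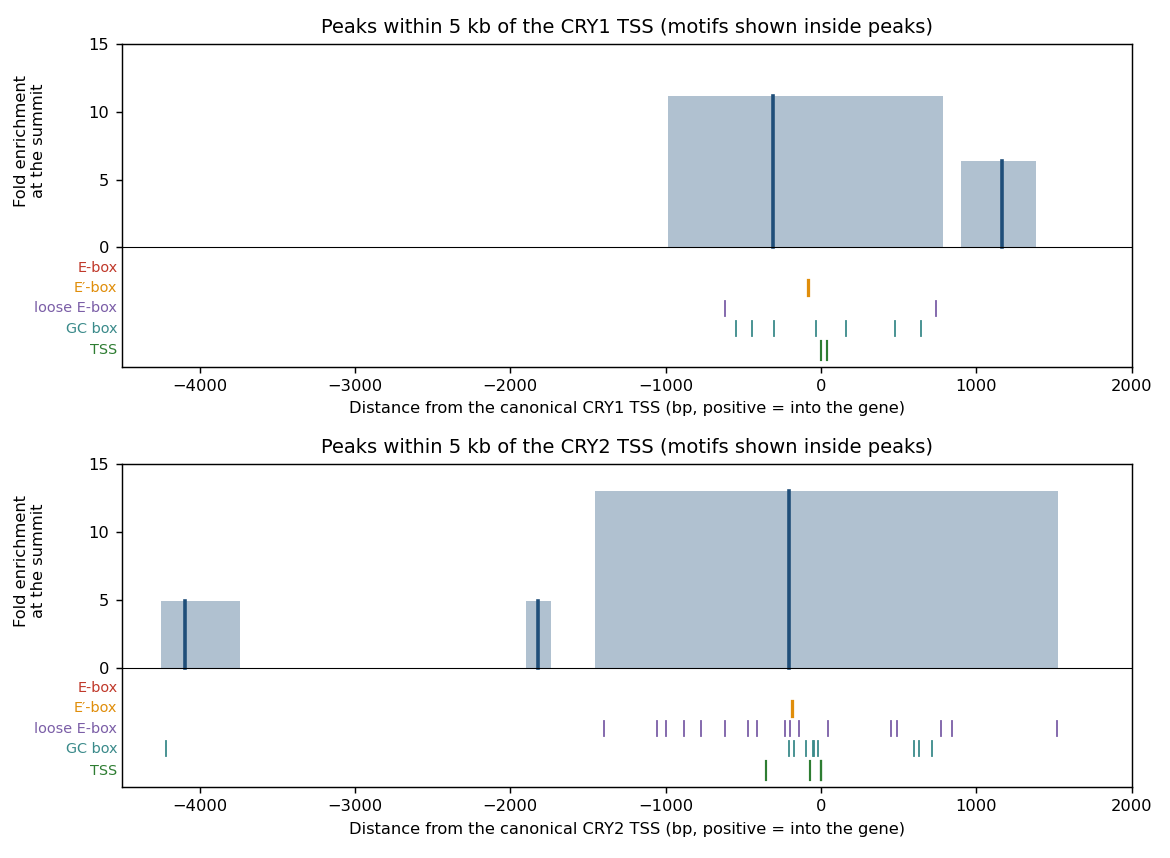
Peaks within 5 kb of the canonical TSS of CRY1 (top) and CRY2 (bottom). The x axis is distance from that TSS in bp along the gene, and the y axis is fold enrichment at the summit, a linear ratio; boxes are peak intervals, dark lines are summits, and ticks below mark motifs inside peaks (loose E-box is CANNTG) and annotated TSSs. The E-box row is empty in both panels, and the single E′-box lies 15 bp from the summit at CRY2 and 221 bp from it at CRY1.

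The 2 remaining peaks counted for CRY2 lay at promoters of other genes. One spanned 198 bp (chr11:45826522-45826719) and had its summit 123 bp upstream of a TSS of SLC35C1, the Golgi GDP-fucose transporter, 42.1 kb from the CRY2 body. It was the weakest of the 7 (fold enrichment 3.57, −log10 q 2.23, rank 2384) and the one interval among them with an E-box, 69 bp from the summit. The other spanned 440 bp (chr11:45943826-45944265), had a fold enrichment of 5.68 (−log10 q 7.64, rank 992), and its summit was 294 bp upstream of a TSS of LARGE2, a glycosyltransferase of α-dystroglycan, 39.1 kb from the CRY2 body. MAPK8IP1, a JNK pathway scaffold, and PEX16, a peroxisome biogenesis factor, are among the genes between CRY2 and that peak. No summit was assigned between that peak and the CRY2 promoter over 73.3 kb. Which gene a distal peak acts on cannot be told from position. With the CRY1 intron peak, whose nearest annotated TSS was that of the lncRNA at 913 bp, 3 of the 7 summits were closer to a TSS of another gene than to one of CRY1 or CRY2. Beyond the limit, the nearest summits on either side of CRY2 (chr11:45868669-45904799, plus strand, ENSG00000121671.12_11) were 867 kb away at TP53I11 and 818 kb away at ARHGAP1.

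**Figure D2:**
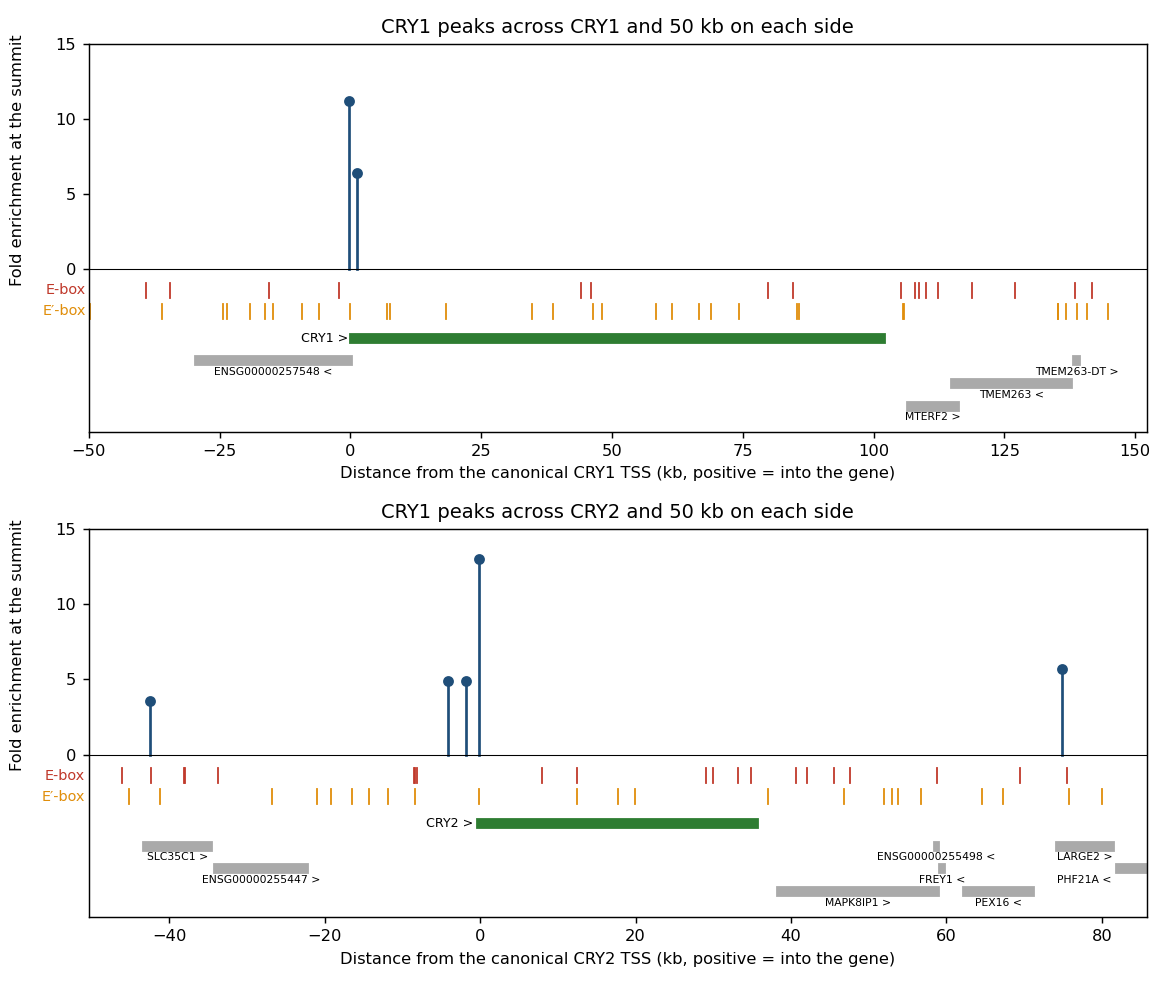
Peaks across each gene body and 50 kb on both sides, CRY1 above and CRY2 below. The x axis is distance from the canonical TSS in kb along the gene and the y axis is fold enrichment at the summit; each stem is a peak, ticks are all E-boxes and E′-boxes of the sequence, bars are gene bodies and arrowheads give their direction. Both CRY1 summits and 3 of the 5 CRY2 summits sit within 5 kb of the canonical TSS, away from most E-boxes.

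Having a peak in this range was not rare. Of 20162 protein-coding genes, 4464 (22.1%, Wilson 95% interval 21.6 to 22.7) had a summit inside or within 50 kb, and 8.64% had 2 or more, as CRY1 did. A count of 5 or more, as at CRY2, was found for 117 genes (0.580%). A summit within 5 kb of an annotated TSS, which both genes had, was found for 1657 genes (8.22%). The 7 peaks differed widely in strength. Fold enrichment ran from 3.57 to 13.0 with a median of 5.68, beside a median of 5.18 over the list, and 3 of the 7 were below that median. For −log10 q the median was 7.64 beside 6.02 over the list. Only the promoter peaks stood near the top, at percentiles 98.9 (CRY1) and 99.2 (CRY2) by −log10 q and 94.2 and 96.4 by fold enrichment. A wide interval gives a motif more room, and these were among the widest, with a median width over the list of 181 bp.

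**Figure D3:**
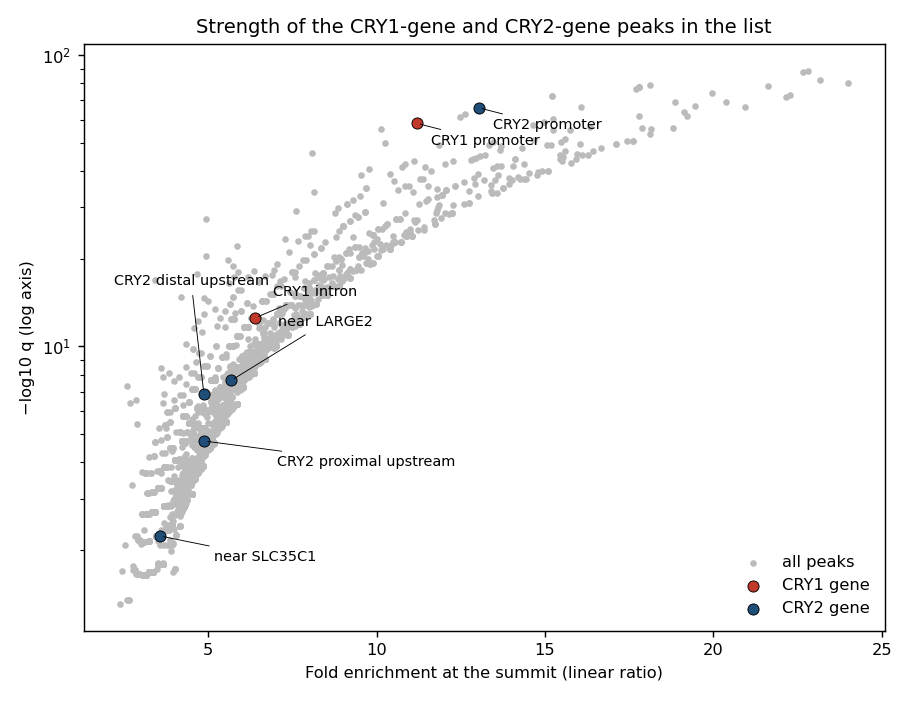
Strength of the 7 peaks at CRY1 (red) and CRY2 (blue) among all 2551 peaks (grey). The x axis is fold enrichment at the summit, a linear ratio, and the y axis is −log10 q on a log axis; each point is a peak. The promoter peaks of CRY1 and CRY2 lie at fold enrichments of 11.2 and 13.0 and −log10 q of 58.4 and 66.0, and the other 5 lie at fold enrichments from 3.57 to 6.39.

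Motif content was read on both strands in a window of 50 bp to either side of each summit. An E-box was present in 47.8% of the summit windows of the list (1218 of 2549, Wilson 95% interval 45.8 to 49.7) and in 0 of the 7 at CRY1 and CRY2. An E′-box was present in 6.63% of them, and in 1 of the 7, the CRY2 promoter. Its window held an E′-box and no E-box, as did 4.63% of summit windows (118), and among those 118 it ranked 1 by −log10 q and 5 by fold enrichment. A GC box was found in 3 of the 7 windows and in 27.0% of all, and CANNTG in 1 of the 7 and in 67.6% of all. D-boxes (TTACGTAA or TTATGTAA), ROREs, androgen response elements and pairs of E-boxes or E′-boxes with 6 or 7 bases between them were each found in 0 of the 7 windows, against 0.275%, 0.118%, 0.235% and 0.353% of all windows. That these letters were not found says nothing of which factors were bound. Within the complete intervals, an E-box was present in 1 of the 7 and in 57.4% of all, and an E′-box in 2 of the 7 and in 11.4% of all.

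Gene body and flanks together held 17 E-boxes at CRY1, over 202 kb, and 21 at CRY2, over 136 kb. The nearest to any summit was 1851 bp away at CRY1 and 69 bp away at CRY2. Of these 38, 1 lay in a peak, the one near SLC35C1, and 0 lay within 50 bp of a summit, where 0.487% of all E-boxes in chromosomes 1 to 22, X and Y did. With a share that low, a count of 0 among 38 does not set these loci apart. Of 55 E′-boxes at both loci, 1 lay within 50 bp of a summit, beside 0.0490% of those chromosomes' E′-boxes, and 2 lay in a peak, 1 in each promoter. The loci hold 7 summits and were chosen with earlier results known, so these shares are not like for like. A count of 1 does not set the loci apart either.

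Strong peaks usually held an E-box in the interval, and the cryptochrome promoters were among those that did not. Of the 100 peaks with the highest −log10 q, 82 had an E-box in the interval, beside 57.4% of all. Within 50 bp of the summit, 63 of the 100 had one, beside 47.8% of all. Without an E-box in the interval, 1085 peaks remained in the list. Their median fold enrichment was 4.73, beside 5.74 for the 1464 with an E-box there. Among the 1085 the CRY2 promoter ranked 4 and the CRY1 promoter 6 by −log10 q. Interval width was not matched in these comparisons. A further description was chosen after the values had been seen. Among the 16 peaks at least as wide as the CRY1 promoter peak, 14 had an E-box in the interval, and the 2 that had none were those of CRY1 and CRY2. An E′-box was in the interval of 10 of the 16, so holding one was common among peaks of this width.

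Peaks of like −log10 q came from varied genes. Around the CRY2 promoter by −log10 q stood those at SNX15 (66.5) and HAGHL (66.1) above, and at OSBPL1A (63.8) and GTF3A (62.6) below. The CRY1 promoter stood between EIF5A2 (59.0) above and CIPC (57.8) below. CIPC encodes another inhibitor of CLOCK and BMAL1. The next on either side were a peak whose nearest annotated coding-gene TSS was that of PTPRN2, 289258 bp away (60.4), and one at HRAS (56.9). Fold enrichment differed more. It ran from 14.7 to 16.3 at these neighbours of the CRY1 promoter, all above its 11.2. Beside 13.0 at the CRY2 promoter it was 16.1 at SNX15, 20.9 at HAGHL, 19.1 at OSBPL1A and 12.6 at GTF3A.

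Other clock genes set the cryptochromes in their pathway. Of a list of 25 clock genes, 17 had a summit inside or within 50 kb, that is 15 of the 23 besides CRY1 and CRY2. The PER genes, whose products are the partners of the cryptochromes in the repressor complex, had stronger peaks. The strongest peak of PER2 had a fold enrichment of 22.8 and the highest −log10 q of the list, 88.5. For PER3 the fold enrichment was 17.8 (−log10 q 77.8), and for PER1 it was 15.2 (−log10 q 72.5). The PER1 summit was 4086 bp upstream of the canonical TSS but inside the annotated gene body. All 3 PER summits had 0 E-boxes within 50 bp, as at the cryptochromes, but 1 or 2 in the interval. Strongest peaks above both CRY promoters in −log10 q were found for 8 genes of the list, also including NR1D1 and NR1D2 (77.8 each), which encode the REV-ERB repressors. Below both stood CSNK1D (55.9), a kinase of PER proteins, CIART (55.8), BHLHE40 (49.9), DBP (49.4), an activator at D-boxes, HLF (46.2), CSNK1E (8.48) and TIMELESS (8.23). The summits counted for CSNK1D and HLF lay 14509 bp and 26507 bp outside the gene body. That of BHLHE41, among the 8 above, lay 5534 bp outside. Among the strongest peaks of the 15 genes, 7 had an E-box within 50 bp of the summit, beside 47.8% of all summits. An E-box was in the interval at 13, beside 57.4% of all intervals and 82 of the 100 peaks with the highest −log10 q. The strongest peaks of DBP and TIMELESS had none there, as the CRY1 and CRY2 promoter peaks had none. The weaker peak at DBP held 2 E-boxes. An E′-box was within 50 bp of the summit at 0 of the 15 and in the interval at 7, beside 6.63% and 11.4% of all. Interval width was not matched in these counts. No summit was assigned to CLOCK, BMAL1, NPAS2, BMAL2, RORA, RORB or NFIL3, so of the core loop the repressor genes had peaks and the activator genes CLOCK and BMAL1 had none in range at the threshold of the list.

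**Figure D4:**
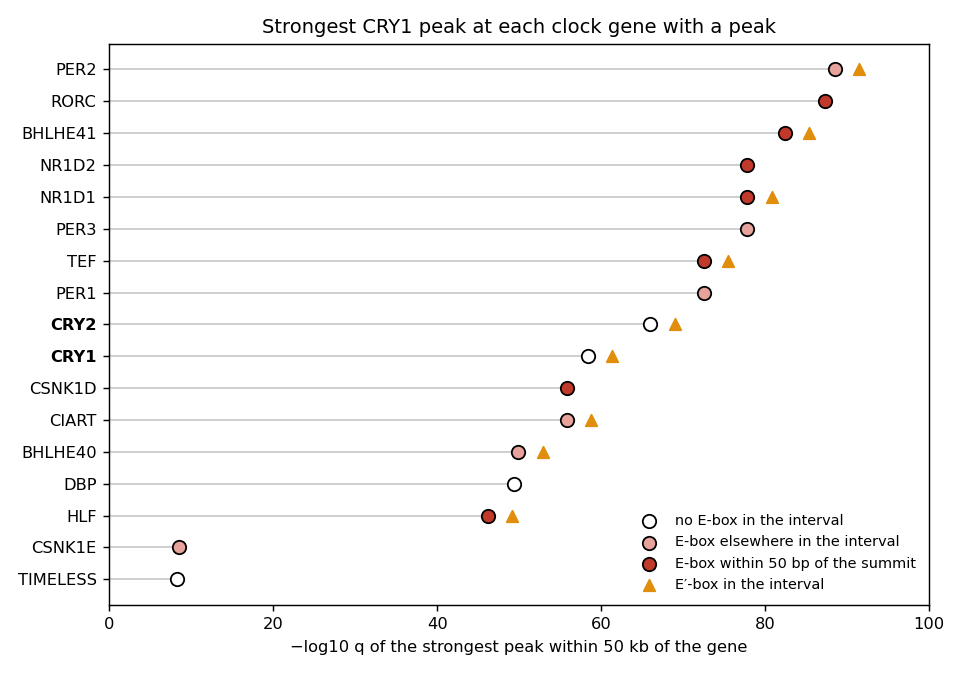
Strongest CRY1 peak, by −log10 q, within 50 kb of each gene of the clock list that had one. The x axis is −log10 q at the summit and each row is a gene; open circles mark peaks with no E-box in the interval, pale ones an E-box away from the summit, red ones an E-box within 50 bp of it, and triangles an E′-box in the interval. PER2 is highest at 88.5, and the CRY2 and CRY1 promoters lie at 66.0 and 58.4.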

How the data were processed

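CRY1 ChIP-seq of C4-2 cells comprised 2 immunoprecipitated libraries and 1 input library. The authors aligned reads to hg19, which has the coordinates of GRCh37, with Bowtie2 and called peaks with MACS2 on both replicates combined at a q-value threshold of 0.05. How duplicates and blacklisted regions were treated is not given in the sources used here. The deposited list holds, per peak, fold enrichment at the summit (a linear ratio), −log10 p and −log10 q-values, and a score derived from −log10 q, which was not used. Depth per library is unknown.

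Summits were placed from the interval start and the offset of the summit, and assigned to genes of GENCODE release 44 lifted to GRCh37 when inside or within 50 kb of a gene body. Each gene's canonical TSS is that of its Ensembl canonical transcript. Motifs were read on both strands of GRCh37 in windows of 50 bp to either side of the summit and in whole intervals, over 2549 summits of chromosomes 1 to 22, X and Y. The 2 peaks on other contigs were left out of motif counts. Percentiles are ranks in the list, and intervals on shares are Wilson 95% intervals, which cover counting only. The motif counter was tested on simulated sequences. Named were all 7 peaks, the nearest peaks outside the 50 kb limit and some of the genes nearby. The 2 peaks next above and below each promoter peak by −log10 q, and genes of a 25-gene clock list, were also named. The genes, lists and motifs were chosen with earlier results of these data known. Python 3.11.15 with NumPy 2.4.6, SciPy 1.17.1 and matplotlib 3.10.9 was used. Alternatives changed the distance to the gene, the window, the strength measure and the threshold.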

Additional observations from a re-analysis of the deposited data

How the results depend on the processing

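The list came from combined libraries, so leaving out a replicate was not possible. No paired analysis was possible because the list holds no value per library. Of 43 alternatives, 18 kept a count within 1.5 times of its value or a share or percentile within its interval. Against 2 peaks at CRY1, counting summits in the gene body only gave 1, and merging peaks within 1 kb gave 1. Against 5 at CRY2, the gene body gave 1, limits of 5 kb and 10 kb gave 3 each, a fold enrichment of at least 5 gave 2, and merging within 1 kb gave 4. At q below 0.01 the counts were 2 and 5. The count of the 7 with an E-box rose from 0 to 1 for windows of 100 bp or 500 bp to each side, for the whole interval, for windows on the peak's midpoint and with 1 mismatch allowed. Those with an E′-box rose from 1 to 2 for 500 bp and for the whole interval, where 24.4% and 11.4% of all summits had one. Among all summits an E-box was found in 54.6% at 100 bp, 75.6% at 500 bp and 32.4% on midpoints. It was found in 57.4% of whole intervals, and in 76.0% of summit windows with 1 mismatch allowed. E-boxes of both loci near a summit rose from 0 to 1 at 100 bp, at 500 bp and anywhere in an interval. By fold enrichment the CRY1 and CRY2 promoter percentiles were 94.2 and 96.4, and 99.5 and 99.7 by −log10 q in a list without E-box intervals. That list and the mismatch were chosen after seeing the data. The share of genes with a summit was 6.85% for gene bodies, 10.6% at 5 kb, 12.1% at 10 kb, 31.1% at 100 kb and 15.7% at a fold enrichment of at least 5. The cause of the moves was not tested beyond what each alternative sets. With no depth given, peaks under the threshold cannot be told from absent ones.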

Other observations

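The run AACGTGAGG, shared by the CRY1 and CRY2 promoter peaks and looked for elsewhere after it had been seen there, was in 8 other intervals. These included the NR1D1 peak (chr17:38254757-38257403, fold enrichment 17.8, −log10 q 77.8) and the weaker of the peaks at DBP (chr19:49137719-49138406, fold enrichment 12.7, −log10 q 31.2), both clock genes. By the nearest coding-gene TSS, the others were at ATXN2, ANKRD27, ZFP36, ENSG00000271793, ENSG00000285602 and RNF32, the last 159464 bp away. The run lay within 50 bp of the summit at CRY2, at ATXN2, whose interval held 1 E-box, and at ENSG00000285602 (chrX:15693732-15693894), whose interval held 0, and not at CRY1. No chance level for this overlap was computed.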
